A study of Mus musculus with 72 samples.

Results

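The genes of odorant-binding proteins and nasal lipocalins were followed through the first 14 days of life in mouse olfactory epithelium, the tissue of the nose that senses odours. They were chosen by symbol from a list of 9 names, Obp1a, Obp1b, Obp2a, Obp2b, Lcn3, Lcn4, Lcn11, Lcn13 and Lcn14. RefSeq gives Lcn13 as a synonym of Obp2a and Lcn14 as a synonym of Obp2b, so the list named 7 genes of the 54532 in the deposited tables. All 7 passed the filter on low counts and were among the 22144 genes tested.

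Lipocalins are small secreted proteins that fold into a barrel with a pocket for greasy molecules. Odorant-binding proteins are the lipocalins of nasal mucus, made by glands of the nose rather than by the olfactory sensory neurons, and they are known to bind odorants and pheromones. Lcn3 and Lcn4 were first described as secretory proteins of glands around the vomeronasal organ and nasal septum, and RefSeq lists them also under the names Vnsp1 and Vnsp2.

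Total RNA was sequenced from olfactory epithelium of 3 genotypes in 72 libraries, which fall into 25 groups. Control mice carried Omp-IRES-tTA, in which the tetracycline-controlled activator tTA is made from the Omp gene of mature olfactory sensory neurons. The ectopicFzd1 mice carried tetO-Fzd1-IRES-tdTomato in addition, so that tTA switches on the Wnt receptor gene Fzd1 and the red protein tdTomato together in those neurons unless doxycycline (DOX) is given. Fzd1lacZ mice (Fzd1-lacZ in the labels) carried a knockout allele of Fzd1 and are marked homo in their titles, where ectopicFzd1 mice are marked het, and no littermates without it were labelled, so they were compared with Omp-IRES-tTA mice. Without DOX, each genotype was sampled on postnatal day (P) 0, 3, 7, 10 and 14. Further control and ectopicFzd1 mice received DOX starting at P0, with a first sample at P1 and later ones at the same ages as above. Of the groups, 22 held 3 libraries, and 3 held 2 (control at P3, control at P7 and ectopicFzd1 at P14, all without DOX). The labels do not say that libraries of a group came from separate animals, so the spread behind the p-values may be technical in part.

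Gene counts per library ranged from 1.315 M to 8.788 M, and the 7 genes together took between 0.006505% and 1.243% of them. Fzd1 was at 3.459 to 20.11 CPM (gene counts per library total, after TMM scaling) in the 15 Fzd1lacZ libraries and at 20.82 to 44.03 CPM in the 13 control libraries without DOX. The library labelled ectopicFzd1 P3 replicate 3 and the library labelled control with DOX P7 replicate 1 had Fzd1 levels against their labels, and the titles of the 3 ectopicFzd1 libraries with DOX at P3 share an ID. Another ID stands in the titles of ectopicFzd1 with DOX P10 replicate 3 and P14 replicate 1, which differ in age. Whether the libraries that share an ID came from separate animals is not known. A family of 12 predicted genes including Gm10800 took over 25% of gene counts in 8 libraries, of which 5 were Fzd1lacZ (2 at P7, 2 at P10 and 1 at P14). TPM (the transcript abundance unit of RSEM) is understated for other genes in such libraries, so levels are given here in CPM, and TPM, which is scaled for length, is used for ratios within a library and for the order of medians. Markers of the labelled tissue were present. The 10 markers of mature olfactory sensory neurons summed to between 635.4 and 7947 CPM, and the 10 markers of sustentacular cells to between 2153 and 10420 CPM. Among the latter, Ugt2a1 and Ugt2a2 added little, at medians of 0.3097 and 9.985 CPM, though their median TPM was 480.6 and 136.1.

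Of the 7 genes, 4 lie within 80.2 kb on the plus strand of mm10 chromosome 2, in the order Obp2a (25700043 to 25703326), Obp2b (25737009 to 25740097), Lcn3 (25765569 to 25768099) and Lcn11 (25777017 to 25780279). Lcn4 lies 887.4 kb away on the minus strand (26667674 to 26671282). Obp1a (78085505 to 78091374, minus strand) and Obp1b (78186777 to 78192292, plus strand) lie 95.4 kb apart on chromosome X. GENCODE gives each gene 1 transcript, of 7 exons (6 in Lcn11) and 652 to 797 bases. The transcripts of Obp2a and Obp2b were identical at 73.6% of 719 aligned bases, and 11.7% of the 50-base stretches of Obp2a occur unchanged in Obp2b. No other pair shared a 50-base stretch, although Obp1a and Obp1b were identical at 73.2% of aligned bases, so shared stretches make the division of reads uncertain for Obp2a and Obp2b. Counts and TPM gave different ratios within both pairs, at P14 a median of 0.886 in counts and 1.499 in TPM for Obp2a over Obp2b, and of 2.503 and 1.238 for Obp1a over Obp1b, so the level of either gene relative to its partner is uncertain. The part of the counting method in this gap was not tested.

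The Obp2 and Obp1 pairs and Lcn11 are shown by the 100 bases before their RefSeq starts (GRCm38.p6), because the members of the Obp2 pair have nearly the same upstream sequence but different time courses, and Lcn11, their neighbour, has a course of its own. The windows are chr2:25699974-25700073 (plus strand) for Obp2a, chr2:25736907-25737006 (plus) for Obp2b, chrX:78091375-78091474 (minus) for Obp1a, chrX:78186708-78186807 (plus) for Obp1b and chr2:25776917-25777016 (plus) for Lcn11. Capitals mark the letters TATAAA, the core of a TATA box.
Obp2a: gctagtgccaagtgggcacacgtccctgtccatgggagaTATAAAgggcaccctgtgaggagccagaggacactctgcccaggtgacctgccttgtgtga
Obp2b: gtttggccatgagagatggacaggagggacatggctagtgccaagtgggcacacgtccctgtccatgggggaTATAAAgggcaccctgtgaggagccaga
Obp1a: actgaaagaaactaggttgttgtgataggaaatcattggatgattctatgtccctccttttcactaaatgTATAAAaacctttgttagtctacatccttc
Obp1b: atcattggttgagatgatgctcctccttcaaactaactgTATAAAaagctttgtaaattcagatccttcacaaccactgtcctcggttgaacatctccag
Lcn11: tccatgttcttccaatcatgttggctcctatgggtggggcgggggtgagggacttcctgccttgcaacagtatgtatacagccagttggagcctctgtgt
In a local alignment of the 300 bases around the starts (250 before and 50 after), Obp2a and Obp2b were identical at 263 of 267 bases (98.5%), while Obp1a and Obp1b were identical at 67.3% of 266. TATAAA was present on the gene's strand in the 100 bases of 5 of the 7 genes (the 4 Obp genes and Lcn3), beside 3.8% of 32851 mouse promoters, and absent from those of Lcn4 and Lcn11. Counted from the GENCODE starts, the motif began 30 bases upstream in all 4 Obp genes and 65 bases upstream in Lcn3. Counted from the RefSeq starts, it began 61 bases upstream in Obp1b and Obp2a, whose RefSeq starts lie 31 bases further into the gene. The letters CTTTGAT, a core site of the TCF/LEF factors of Wnt signalling, were found on neither strand of the 250 bases before the start in the 7 genes, beside 3.21% of promoters, and CTTTGAA was found in Lcn4 alone, beside 4.46% of promoters.

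The genes followed different courses after birth. Lcn11 was the most abundant at birth, at a median of 1329 CPM (246.5 to 5053) over the 15 libraries of P0 and P1, and had a median of 312.2 CPM (55.86 to 1721) at P14. Obp2a was also present at birth at a median of 203.6 CPM (29.22 to 708.0), stood at 29.41 CPM (2.725 to 162.1) at P3, and reached 837.4 CPM (118.2 to 3320) at P14. The other 5 began low, and all 5 had their highest median at P14.

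Obp2b went from a median of 6.994 CPM (2.845 to 25.14) at birth to 943.8 CPM (132.9 to 4070) at P14. Lcn3 went from 20.46 CPM (2.105 to 74.04) to 425.9 CPM (82.71 to 1557), Obp1a from 9.64 CPM (3.494 to 32.37) to 652 CPM (160.8 to 4661), and Obp1b from 1.299 CPM (0.1727 to 4.246) to 243.2 CPM (44.94 to 2246). Lcn4 was close to undetected at birth, at no more than 0.9991 CPM in any library, and had a median of 116.3 CPM (1.328 to 546.8) at P14. The ranges at birth and at P14 did not overlap for Obp2b, Lcn3, Obp1a, Obp1b and Lcn4, although they pool all genotypes and DOX states. The share of all genes whose ranges separate in this way was not counted. In TPM the order of medians at birth was Lcn11 (1635), Obp2a (183), Lcn3 (16.16), Obp1a (8.35), Obp2b (4.19), Obp1b (1.69) and Lcn4 (0), and at P14 it was Obp2a (493.6), Obp1a (368.3), Obp2b (313), Lcn3 (264.1), Obp1b (261), Lcn11 (194.8) and Lcn4 (61.84). At P14 the ranges of each gene and the next in this order overlapped.

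**Figure D1:**
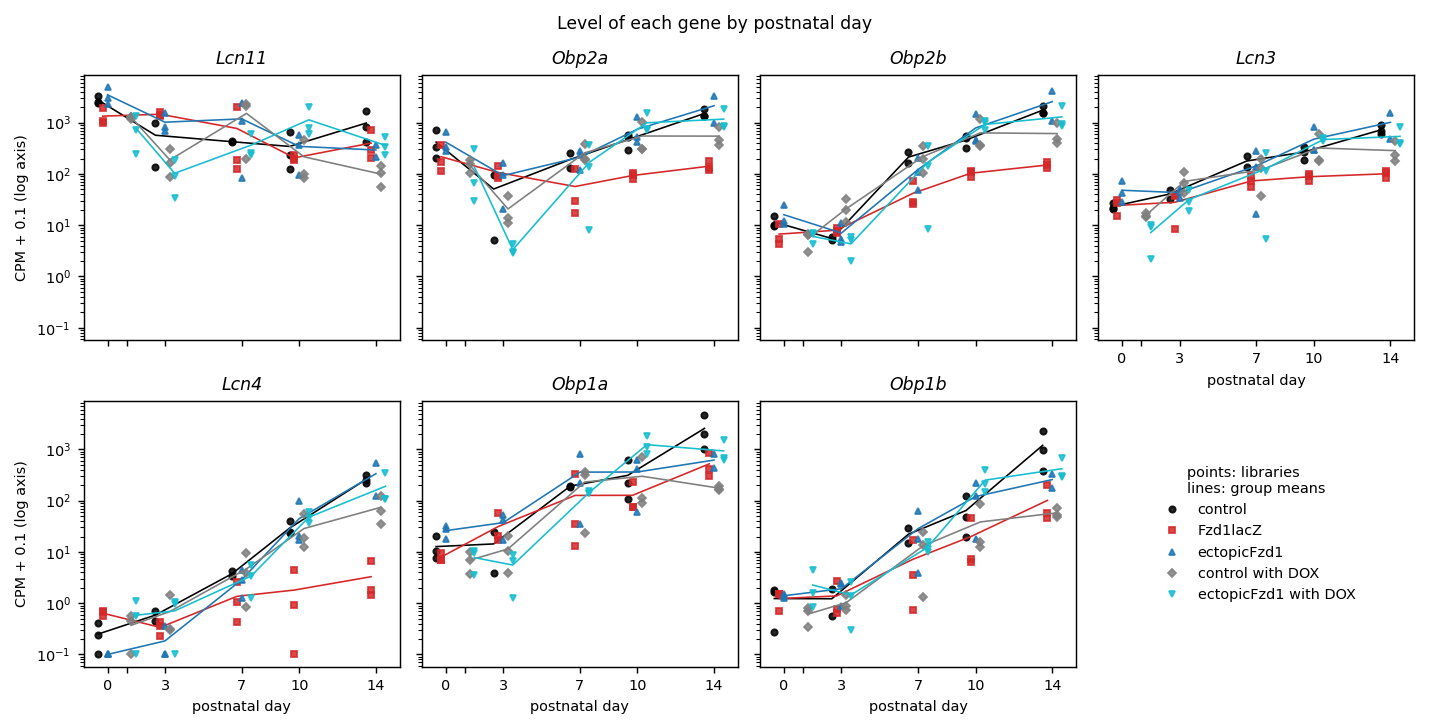
Level of each of the 7 genes (CPM + 0.1, log axis) against postnatal day, with a point for each of the 72 libraries and a line through the group means of each genotype and DOX state. Lcn11 starts high in every series, Obp2a dips at P3 in most libraries, and Lcn4 stays at or below 6.503 CPM in Fzd1lacZ while it is at 35.74 CPM or more at P14 in the other series.

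The change from the first age (P0, or P1 with DOX) to P14 was tested within each series with edgeR's quasi-likelihood test, and a gene was called when its Benjamini-Hochberg adjusted p over all genes was below 0.05. The ID series, read from the leading digits of the IDs in the titles, differed between the first age and P14 except in control with DOX. Elsewhere age and ID series therefore cannot be told apart. In control without DOX 6 of the 7 genes were called higher and none lower, where 23.5% of all genes tested were called higher. In Fzd1lacZ 4 were called higher (background 11.5%) and in ectopicFzd1 with DOX 6 (14.6%). In ectopicFzd1 6 were called higher (16.9%) and 1, Lcn11, lower (15%), and in control with DOX 6 were called higher (17.1%) and Lcn11 lower (20.7%). The median log2 fold change of the 7 genes was 7.25 in control without DOX and 2.69 in Fzd1lacZ, beside 0.06 and -0.04 over all genes tested.

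Lcn4, a lipocalin of vomeronasal and septal glands, had the largest fitted rise from the first age to P14 in each of the 4 series other than Fzd1lacZ, while in Fzd1lacZ the fitted rises of Obp1b, Obp1a and Obp2b were larger. The differences between genes were not tested. In control without DOX its libraries stood at 0.1405, 0.3076 and 0 CPM at P0, at 4.067 and 3.265 CPM at P7, at 40.02, 24 and 23.15 CPM at P10, and at 250.1, 312.4 and 221.7 CPM at P14. Every P10 library was above every P7 library, and every P14 library above every P10 library. In edgeR's test the log2 fold change of Lcn4 from P0 to P14 was 10.50 (SE 0.89, adjusted p = 7.09e-14), a value that rests on 3 counts in all at P0. In ectopicFzd1 it had no count at P0, so its mean of 335.4 CPM at P14 was at least 2640-fold higher, taking 3 counts over the P0 group as the floor. That mean comes from 2 libraries, and the bound was 978-fold without replicate 2 and 4310-fold without replicate 1.

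The age at which each gene was first called higher than at its first age differed among them. Over the 15 comparisons of P3, P7 or P10 with the first age, 48 of 105 member tests were called higher and 11 lower, beside 10.8% and 11.9% of all gene tests. In most of these comparisons the ages also carry different ID series, so age and ID series cannot be told apart. P3 in Fzd1lacZ, P3 in ectopicFzd1 with DOX and P10 in control with DOX share the ID series of their first age. P7 in Fzd1lacZ does so in replicate 1 only. Several of these first calls rested on single libraries, as fits that leave out 1 library at a time showed. Obp1a, an odorant-binding protein of the X-linked pair, was first called at P7 in all 5 series, and the call was kept in every such fit except in Fzd1lacZ, where only 2 of 6 kept it, those without P7 replicate 2 or 3 (adjusted p up to 0.414, edgeR). Obp1b was first called at P7 in 4 series, and in Fzd1lacZ at P14. Its P7 call was kept in 6 of 6 fits in ectopicFzd1. It was lost in control without P7 replicate 1 and in control with DOX without P1 replicate 1 or P7 replicate 2. In ectopicFzd1 with DOX it was kept only without P1 replicate 1 (adjusted p up to 0.175). Obp2b was first called at P7 in 4 series, a call kept in every fit of 3 of them and lost in Fzd1lacZ without P0 replicate 2 or 3 or P7 replicate 1. In control with DOX Obp2b was already called at P3, but 1 of 6 fits kept that call, the one without P3 replicate 1 (adjusted p up to 0.202), while its P7 call was kept in all 6.

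Lcn3 was first called at P3 in both series with DOX, at P7 in control without DOX, and at P10 in ectopicFzd1 and Fzd1lacZ without DOX. The P3 call was lost in control with DOX without P1 replicate 2 or 3 or P3 replicate 3 (adjusted p up to 0.0914, edgeR), and in ectopicFzd1 with DOX it was kept only without P3 replicate 3 (up to 0.18). The 3 libraries of ectopicFzd1 with DOX at P3 share an ID, so that call may treat 1 animal as 3 replicates. The P7 call in control was kept in 5 of 5 fits and the P10 call in ectopicFzd1 in 6 of 6, while the P10 call in Fzd1lacZ was kept in 0 of 6 (adjusted p 0.0602 to 0.16). At P14 the Lcn3 call in Fzd1lacZ was kept only without P0 replicate 3 or P14 replicate 1 (adjusted p up to 0.103), and limma on log2(TPM + 1) did not make it (adjusted p = 0.155). The series with DOX start at P1 and those without at P0, and a first call depends on the spread of each group, so these ages were not compared by a test. Lcn4 was first called at P7 in 3 series and at P10 in ectopicFzd1 with DOX. The P7 calls were weak, kept in 0 of 5 fits in control (adjusted p 0.0712 to 0.177, edgeR), in ectopicFzd1 only without P7 replicate 2 (up to 0.106) and in control with DOX only without P7 replicate 3 (up to 0.191), whereas every fit called Lcn4 at P10 in these 4 series. It was not called at any age in Fzd1lacZ, where its log2 fold change from P0 to P14 was 2.69 (SE 1.32, adjusted p = 0.14, edgeR). That rise was called by DESeq2 (2.59, adjusted p = 0.0429), by edgeR with no filter (2.73, adjusted p = 1.95e-06) and by limma on log2(TPM + 0.1) (2.63, adjusted p = 0.0276). These were 3 of 8 alternatives. The fit with no filter gave far smaller p-values in other comparisons too, for a reason that was not tested.

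Obp2a was called lower at P3 than at the first age in 4 of the 5 series, with log2 fold changes of -3.05 (SE 0.92, adjusted p = 0.0197, edgeR) in control and -5.37 (SE 0.999, adjusted p = 7.64e-05) in ectopicFzd1 with DOX. In that last series its libraries stood at 29.22, 66.27 and 310.4 CPM at P1 and at 4.131, 2.866 and 2.725 CPM at P3. All P3 libraries of the series were below all P1 libraries. These P3 libraries are the 3 that share an ID, so this p may treat 1 animal as 3 replicates. The call at P3 was kept in 6 of 6 fits there. It was lost in control without P0 replicate 2 or P3 replicate 1 (adjusted p up to 0.369, edgeR) and in control with DOX without P3 replicate 1 (0.0501), and in ectopicFzd1 it was kept only without P3 replicate 1 (up to 0.242). The control value at P3 comes from 2 libraries that differ widely, at 5.096 and 96.16 CPM. In Fzd1lacZ Obp2a stood at 367.5, 171.8 and 111.6 CPM at P0 and at 92.13, 143.9 and 82.75 CPM at P3, with a log2 fold change of -1.03 (SE 0.73, adjusted p = 0.446, edgeR). Obp2a was called higher at P14 than at the first age in 4 series, and in Fzd1lacZ its log2 fold change was -0.61 (SE 0.72, adjusted p = 0.608, edgeR). The P14 call was kept in 6 of 6 fits in ectopicFzd1 with DOX. It was lost in control without P0 replicate 1 or 3 or P14 replicate 2 (adjusted p up to 0.134), and in ectopicFzd1 without P0 replicate 2 or 3 or P14 replicate 2 (up to 0.386). In control with DOX it was kept only without P14 replicate 1 or 2 (up to 0.154). Limma on log2(TPM + 1) did not call it in these 3 series (adjusted p = 0.198, 0.261 and 0.4).

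Lcn11 was not called higher than at birth at any age. It was called lower at P10 in 4 of the 5 series and at P14 in 2, ectopicFzd1 and control with DOX. In control with DOX it stood at 1305, 1295 and 1163 CPM at P1, at 165.2, 86.99 and 310.3 CPM at P3, and at 102.3, 55.86 and 140.3 CPM at P14. The P10 call was lost in Fzd1lacZ without P0 replicate 1 or P10 replicate 3 (adjusted p up to 0.0729, edgeR) and in control with DOX without P10 replicate 1 or 2 (up to 0.0981). The P14 call in ectopicFzd1 was lost without P14 replicate 2 (adjusted p = 0.0933, edgeR). At P7, however, 2 libraries of control with DOX were at 2261 and 2090 CPM, and the third, the one with Fzd1 against its label, was at 193.2 CPM. The level of Lcn11 was therefore not steady across the groups between P3 and P10, and groups at those ages differed widely within themselves. In control with DOX the P3 and the P7 libraries each carry an ID series other than that of P1, P10 and P14. Age and ID series thus cannot be told apart in the low values at P3 and the high values at P7.

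The Obp2 pair changed from unequal to nearly equal levels. The ratio of Obp2a to Obp2b in TPM had a median of 53 (7.928 to 94.55) at P0 and P1, of 6.113 (0.4902 to 49.48) at P3, of 1.849 (1.022 to 8.427) at P7, of 1.635 (1.261 to 2.492) at P10 and of 1.499 (1.368 to 1.851) at P14. No library at birth had a ratio as low as any library at P14. The same ratio taken from read counts went from a median of 28.53 (4.179 to 47.95) to 0.886 (0.8053 to 1.06), so which of the pair was higher at P14 depended on the unit. At P14 the TPM ratio lay between 1.404 and 1.851 in Fzd1lacZ and between 1.368 and 1.755 in the other groups.

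The ratio of Obp1a to Obp1b in TPM had a median of 4.941 (1.115 to 23.41) at P0 and P1 and of 1.238 (1.019 to 3.792) at P14, and these ranges overlap. At P14 it lay between 2.219 and 3.792 in the 3 Fzd1lacZ libraries and between 1.019 and 1.644 in the 11 others. The ratio from counts separated them as well, at 4.198 to 7.251 against 2.033 to 3.58. The X-linked pair thus had relatively less Obp1b in Fzd1lacZ at P14, a difference that was described here and not tested.

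**Figure D2:**
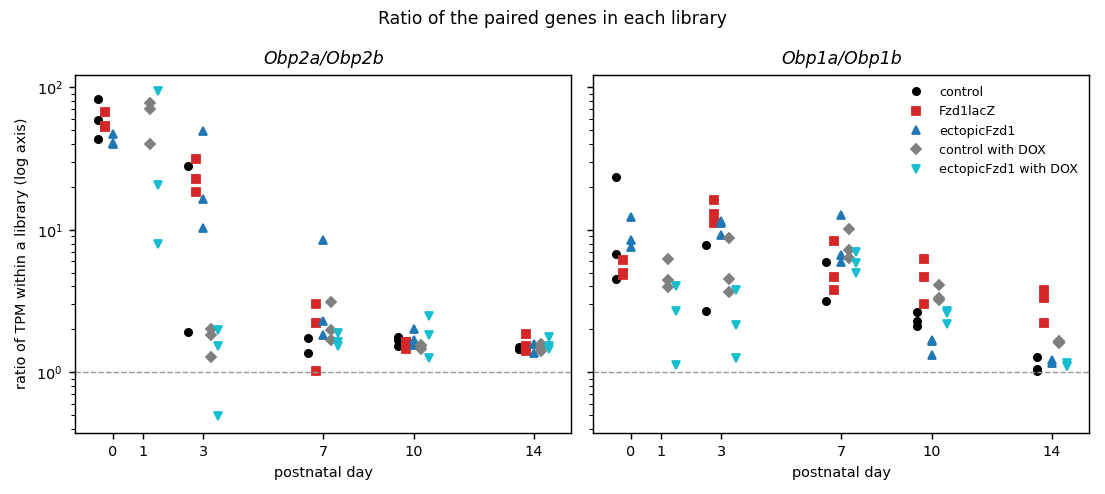
Ratio of Obp2a to Obp2b (left) and of Obp1a to Obp1b (right) in TPM within each library, on a log axis, against postnatal day, with a dashed line at equal levels. The Obp2 ratio falls from a median of 53 at birth to 1.499 at P14, and the red squares of Fzd1lacZ at P14 lie at 2.219 to 3.792 in the right panel, above the other groups.

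The response to loss of Fzd1 was tested at each age against control without DOX. None of the 7 genes was called at P0 (background 7.76%), at P3 (1.08%) or at P7 (0.0858%) with edgeR, and DESeq2 and limma on log2 TPM called none at these ages either. At an unadjusted p below 0.05 there were 0, 0 and 2 of them, beside 27.9%, 13.7% and 5.3% of all genes. At P10 the test called Lcn4 alone, as lower (0.185%), and at P14 it called 5 of the 7 genes, all lower (0.33%). The median log2 fold change of the 7 genes was -0.69 on day 0, 0.55 on day 3, -1.31 on day 7, -2.13 on day 10 and -3.41 on day 14, while that of all genes tested stayed between -0.04 and 0.05. At P14 the titles of both genotypes carry IDs of the same series, and at the other ages they do not. The labels give the Omp-IRES-tTA allele for control mice and not for Fzd1lacZ mice, so loss of Fzd1 and absence of that allele cannot be told apart.

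Lcn4 stood at 1.732, 6.503 and 1.328 CPM in the Fzd1lacZ libraries at P14. All 3 were below every other library of that age, the lowest of which was at 35.74 CPM in control with DOX. Against control it fell by 6.16 in log2 units (SE 0.63, adjusted p = 8.37e-10, edgeR). At P10 it stood at 4.309, 0.81 and 0 CPM, from 9 counts in all, beside 256 counts in control, and fell by 4.77 (SE 1.05, adjusted p = 0.0166). The library at 0 was shallow, so that 3 counts in it would be 4.359 CPM, still below the lowest control library of that age at 23.15 CPM. The P10 call was lost without control replicate 1 (adjusted p = 0.0907), without Fzd1lacZ replicate 2 (0.0703) or without Fzd1lacZ replicate 3 (0.0738), and the log2 fold change then lay between -4.56 and -3.74.

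Obp2b stood at 146.8, 168.6 and 132.9 CPM in Fzd1lacZ at P14 and at 1525, 2161 and 1576 CPM in control. It fell by 3.55 (SE 0.61, adjusted p = 2.92e-04, edgeR). Obp2a stood at 118.2, 178.8 and 127.9 CPM, against 1369, 1825 and 1335 CPM in control, and fell by 3.41 (SE 0.78, adjusted p = 0.0155). Lcn3 stood at 82.71, 115.7 and 103.2 CPM, against 605.6, 882.7 and 678.4 CPM, and fell by 2.84 (SE 0.65, adjusted p = 0.0155). For all 3 genes the Fzd1lacZ libraries at P14 were tightly grouped and lay below each of the 11 libraries of the other groups, whose lowest values were 401.6, 369.4 and 175.4 CPM for Obp2b, Obp2a and Lcn3. The calls of Obp2a and Lcn3 were kept in 2 of the 6 fits that leave out 1 library, with adjusted p up to 0.101 and 0.085, being lost without control replicate 2 or without any 1 of the Fzd1lacZ replicates.

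The same 4 genes, Lcn4, Obp2b, Obp2a and Lcn3, were already below every library of the other 4 groups at P10, as were 1.04% of genes at that age and 0.993% at P14. At P10 Obp2b stood at 86.19, 115.7 and 107.5 CPM in Fzd1lacZ and at 322.5 to 1449 CPM in the other 12 libraries, and its fold change against control did not pass the test (-2.13 on the log2 scale, SE 0.60, adjusted p = 0.122, edgeR). The fit without Fzd1lacZ P10 replicate 2 did call it (adjusted p = 0.0244). At P7 no gene of the 7 was below all other libraries, and 4 were below the 2 control libraries (background 8.43%). At P3 Lcn4 was below control in all libraries (25.8%), from 1 to 4 counts a library.

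The X-linked pair and Lcn11 differed from the other 4. Obp1b stood at 201.4, 44.94 and 57.42 CPM in Fzd1lacZ at P14 and at 2246, 966.3 and 386.6 CPM in control, and fell by 3.63 (SE 0.67, adjusted p = 8.81e-04, edgeR). Control with DOX at P14, however, was at 48.11, 53.26 and 72.18 CPM, within the Fzd1lacZ range. Against the mean of the other 4 groups at P14, a comparison chosen after the data were seen, Obp1b had a log2 fold change of -1.60 (adjusted p = 0.103, edgeR). Over all alternatives its adjusted p went from 9.51e-53 to 0.356, and 6 of 10 called it.

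Obp1a stood at 845.3, 302.9 and 416.4 CPM in Fzd1lacZ at P14 and at 4661, 2038 and 1000 CPM in control. These groups did not overlap, although control with DOX at P14, at 160.8 to 194.2 CPM, lay below every Fzd1lacZ library. The log2 fold change against control without DOX was -2.31 (SE 0.82, adjusted p = 0.233, edgeR). It was called in 2 of 10 alternatives, without the libraries rich in the Gm10800-type family (-2.81, adjusted p = 0.0472, edgeR) and with no filter. Over all alternatives adjusted p went from 1.64e-17, with no filter, to 1. In all, 6 of the 7 genes were below control in every library at P14, beside 6.58% of genes. Lcn11 was the exception, at 703.7, 203.5 and 292.4 CPM against 1721, 809.8 and 419.2 CPM, with a log2 fold change of -1.30 (SE 0.81, adjusted p = 0.699). At P0 Lcn11 was the gene below all other libraries, at 1951, 995.9 and 1073 CPM against 2336 to 5053 CPM in the 6 libraries of control and ectopicFzd1, as were 13.8% of genes, and its log2 fold change of -1.05 against control (SE 0.80, adjusted p = 0.396, edgeR) did not pass the test.

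**Figure D3:**
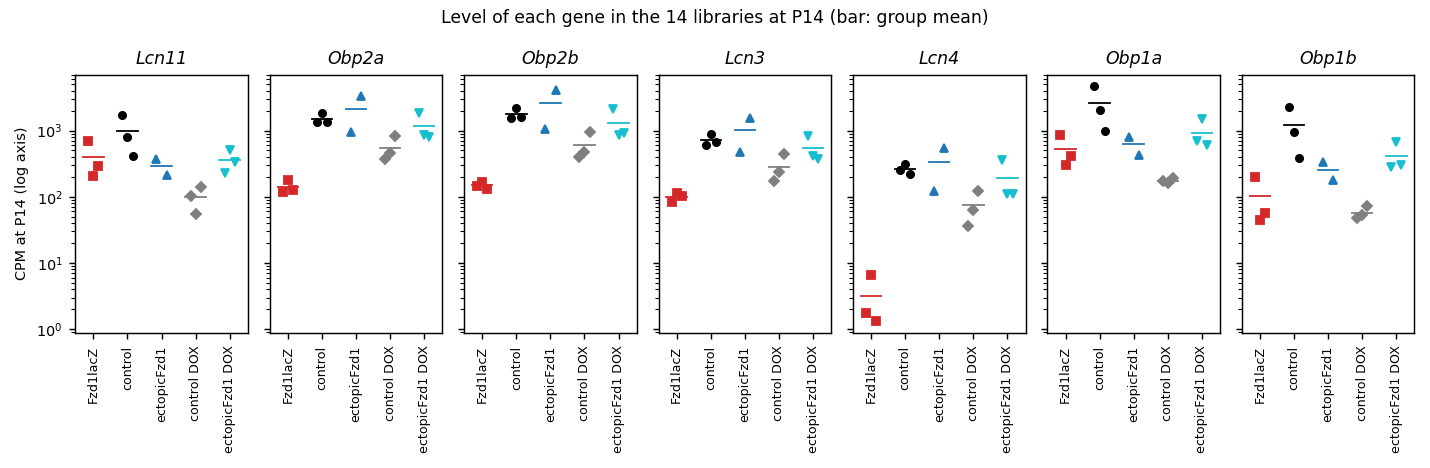
Level of each gene in CPM (log axis) in the 14 libraries at P14, with a point for each library and a bar for each group mean. In Lcn4, Obp2b, Obp2a and Lcn3 the 3 Fzd1lacZ libraries lie below all 11 others, and in Obp1a, Obp1b and Lcn11 they overlap with libraries of other groups.

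**Figure D4:**
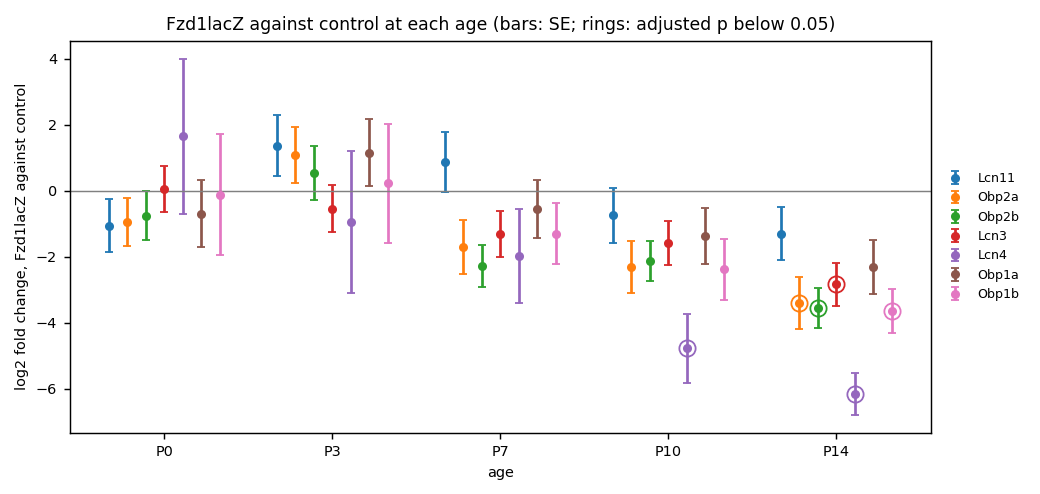
Log2 fold change of Fzd1lacZ against control at each age for the 7 genes, with bars for the standard error and rings around values with an adjusted p below 0.05. Rings appear on Lcn4 at P10 and on Lcn4, Obp2b, Obp2a, Lcn3 and Obp1b at P14.

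Averaged over the 5 ages, Obp2b, Obp2a and Lcn3 were called lower in Fzd1lacZ (3 of 7, background 1.42%). The call of Obp2a was lost without control P3 replicate 2 (log2 fold change -0.79, adjusted p = 0.357, edgeR), the library at 96.16 CPM. Averaged over P7, P10 and P14 alone, a choice made after the data were seen, 5 of the 7 genes were called lower (background 1.18%). An exact permutation test of genotype within age on log2(CPM + 1), 2-sided over 800000 arrangements, gave differences of -1.67 for Obp2b (p = 0.0001475), -1.28 for Lcn3 (p = 0.0002362), -2.19 for Lcn4 (p = 0.0005862), -1.47 for Obp1b (p = 0.006486), -1.33 for Obp2a (p = 0.02235), -0.86 for Obp1a (p = 0.1078) and -0.20 for Lcn11 (p = 0.6725), where the smallest p possible was 1.25e-06. These values are not adjusted for the 7 genes.

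The rise from P0 to P14 was compared between Fzd1lacZ and control by the interaction of genotype and age, and no gene of the 7 was called with edgeR (background 3.54%). At an unadjusted p below 0.05 there were 4 of them (24.1% of all genes), DESeq2 called 2, and limma on log2 TPM called 1 with either pseudocount. The rise of Lcn3 was smaller in Fzd1lacZ by 2.9 on the log2 scale (SE 0.94, adjusted p = 0.0608), that of Obp2b by 2.80 (SE 0.94, adjusted p = 0.0702), and that of Lcn4 by 7.81 (SE 2.94, adjusted p = 0.101). That these genes rose less in Fzd1lacZ therefore did not pass this test, although the levels at P14 did.

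Expression of Fzd1 in mature neurons, and DOX itself, were compared by the same test. Averaged over ages, edgeR called 0 of 7 between ectopicFzd1 and control without DOX (background 9.19%), 0 of 7 between them with DOX (0.826%), and 0 of 7 between control with and without DOX (0.867%). At an unadjusted p below 0.05 there were 0, 1 and 3 of them, beside 20.4%, 10.3% and 13.3% of all genes, and DESeq2 called 0, 1 (Obp1b) and 0. Without DOX the log2 fold changes ran from -0.85 (SE 0.89) for Lcn4 to 0.45 (SE 0.35) for Obp2a. The difference between ectopicFzd1 and control in the rise from P0 to P14 was called for none of the 7 genes (edgeR, background 0.0858%), with 1 at an unadjusted p below 0.05 (5.58% of all genes) and none called by DESeq2. The 2 ectopicFzd1 libraries at P14 without DOX differed greatly for the chromosome 2 genes, with Obp2b at 1066 and 4070 CPM, which limits this comparison.

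With DOX the control libraries at P14 were low in the X-linked pair, with Obp1a at 172.2, 160.8 and 194.2 CPM beside 689.4, 1494 and 614.5 CPM in ectopicFzd1 with DOX. The averaged difference between these genotypes was 1.53 (SE 0.64, adjusted p = 0.336, edgeR) for Obp1b and 0.56 (SE 0.42, adjusted p = 0.764) for Obp1a. Averaged over P3, P7, P10 and P14, control with DOX against control without it gave -1.55 (SE 0.71, adjusted p = 0.323) for Obp1b, -0.99 (SE 0.44, adjusted p = 0.314) for Obp1a and 0.23 (SE 0.32, adjusted p = 0.788) for Obp2b. None of these passed the test, and the standard errors of the X-linked pair were the wider ones.

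Libraries of the same group differed from one another in these genes, and some of the genes deviated together. The deviation of each library from its group mean of log2(CPM + 1) was correlated between genes over the 72 libraries, for 21 pairs, with permutation p-values within groups and Benjamini-Hochberg adjustment over the pairs. Obp1a and Obp1b deviated together (Pearson r = 0.92, Spearman rho = 0.898), as did Obp1a and Lcn11 (r = 0.889, rho = 0.84) and Obp1b and Lcn11 (r = 0.766, rho = 0.706). All of these had an adjusted permutation p of 5.25e-05 for r and rho, from the smallest p that 100000 permutations can give. Among the chromosome 2 genes other than Lcn11, the 4 pairs of 6 with the highest r had r = 0.744 for Obp2a and Obp2b (rho = 0.75), 0.79 for Obp2b and Lcn3 (rho = 0.665), 0.565 for Obp2b and Lcn4 (rho = 0.573) and 0.592 for Lcn3 and Lcn4 (rho = 0.643), the largest adjusted permutation p among them being 0.0003937 for r and 0.0005775 for rho. The share of all gene pairs that deviate together in this way was not counted.

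Lcn3 and Lcn11, neighbours on chromosome 2, had r = -0.025 (rho = 0.018, adjusted permutation p = 0.9063 and 0.9514), and Lcn3 and Obp1a had r = -0.025 (rho = 0.06, adjusted permutation p = 0.9063 and 0.7978). The other 2 pairs were weaker, with r = 0.389 for Obp2a and Lcn3 (rho = 0.317, adjusted permutation p = 0.1345 and 0.06062, r = 0.123 without the 2 farthest libraries) and 0.335 for Obp2a and Lcn4 (rho = 0.341, adjusted permutation p = 0.02073 and 0.03436). Obp2a also had r = 0.424 (rho = 0.452) to Obp1a, with adjusted permutation p of 0.00196 and 0.003197, and r = 0.549 (rho = 0.558) to Lcn11 and adjusted permutation p of 0.00012 and 0.0003. Leaving out the 2 libraries farthest from the median gave r = 0.908 for Obp1a and Obp1b, 0.863 for Obp1a and Lcn11 and 0.667 for Obp2b and Lcn3. Within groups and ID series together (68 libraries) these values were 0.881, 0.822 and 0.805, and without the 10 libraries that stand apart by the Gm10800-type family or by Fzd1 they were 0.872, 0.806 and 0.817. Points in these correlations share library and depth, whose part was not tested.

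Single libraries show these pairs. In ectopicFzd1 with DOX at P7, replicate 3 had Obp2a at 7.864, Obp2b at 8.44 and Lcn3 at 5.179 CPM, where the other replicates had 135.2 and 365.2, 142.5 and 351.1, and 114.3 and 260.3 CPM. The same library had Obp1a at 156.9 CPM beside 140.5 and 142.6 CPM. In ectopicFzd1 at P14, replicate 2 had Obp2b at 4070 CPM against 1066 CPM in replicate 1, but Obp1a at 430.8 CPM against 806.8 CPM. The chromosome 2 genes other than Lcn11 were thus low or high in these libraries where Obp1a was not.

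**Figure D5:**
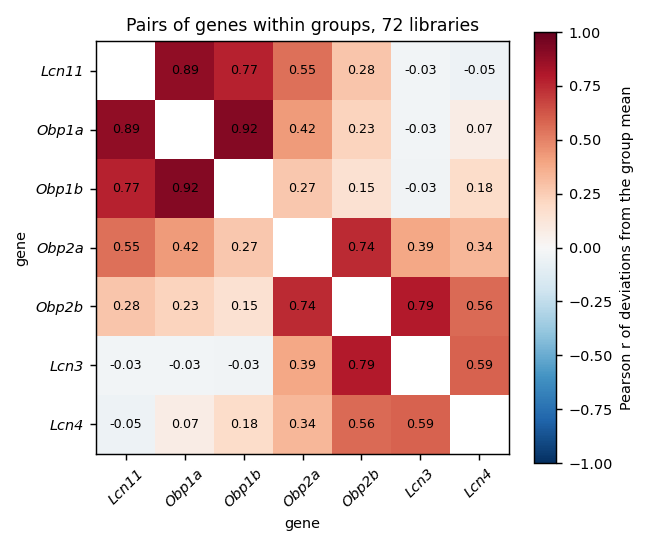
Pearson correlation, over 72 libraries, of the deviations of each pair of genes from their group means of log2(CPM + 1), with colour from -1 to 1. Lcn11, Obp1a and Obp1b form a block (0.77 to 0.92), and Obp2b, Lcn3 and Lcn4 another (0.56 to 0.79). Obp2a is at 0.74 with Obp2b, 0.55 with Lcn11, 0.42 with Obp1a, 0.39 with Lcn3 and 0.34 with Lcn4.

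The genes whose group means were most like those of the 7 were looked for among 16791 named genes, by Pearson correlation of mean log2 CPM over the 25 groups, given as a description since all groups share age. Nearest to Obp2b was Bpifb3 (r = 0.96), which encodes a secreted protein of the BPI fold family, followed by Cyp3a13 (0.945) and Gsta2 (0.942), genes of enzymes that process foreign chemicals. Bpifb3 was also nearest to Obp1b (0.928) and among the 3 nearest to Lcn3 and to Lcn4, and Gchfr, the gene of a regulator of tetrahydrobiopterin synthesis, was nearest to Lcn4 (0.933). Obp2a had Dmbt1 (0.882), the gene of a mucosal scavenger receptor protein, as its nearest, and Obp1a had Bglap2 (0.942). Lcn11 was nearest to Scgb2b27 (0.938), a secretoglobin gene, and to Bhlha15 (0.924), which encodes a transcription factor of secretory cells.

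Of 19 other lipocalin family genes listed, 16 were in the tables and 7 were expressed enough to be tested. From P0 to P14 in control 5 of the 7 rose (background 23.5%), among them Mup5, the gene of a major urinary protein, which changed by 7.02 on the log2 scale (SE 1.18, adjusted p = 2.52e-06, edgeR). In Fzd1lacZ at P14 Mup5 fell by 3.84 (SE 0.99, adjusted p = 0.0427), with a group median of 34.18 CPM against 595.2 CPM in control, and Mup genes are near-identical copies whose counts are uncertain. Lcn2, the gene of an iron-scavenging lipocalin of inflamed epithelium, went the other way at P14, with a median of 154.5 CPM in Fzd1lacZ against 22.46 CPM in control (3.22 on the log2 scale, SE 0.62, adjusted p = 0.00197). In either direction 0.714% of all genes were called in this comparison.

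Among 17 tested genes of nasal glands and secretions, 2 were lower in Fzd1lacZ at P14, Dmbt1 (-2.70, SE 0.53, adjusted p = 0.00285, edgeR) and Bpifb3 (-1.19, SE 0.29, adjusted p = 0.0281), and none was higher. Their median log2 fold change was 0.20. From P0 to P14 in control 8 of the 17 rose and 7 fell, beside 23.5% and 22.2% of all genes. Those that fell included Bpifb5 (-5.79, SE 1.18, adjusted p = 6.61e-05) and Odam (-3.35, SE 0.96, adjusted p = 0.00387), so secretory genes with opposite courses were present beside Lcn11 and the Obp genes.

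Lists of other cell types were set beside the fall in Fzd1lacZ at P14, since in bulk tissue fewer cells of a type and less RNA per cell cannot be told apart. None of 8 Bowman gland markers was called at P14 (median log2 fold change -0.09), though their summed level was 3118 to 4490 CPM in Fzd1lacZ and 4875 to 5340 CPM in control, which do not overlap. Most of that sum was Cyp2a5, with a group median of 3428 CPM in Fzd1lacZ and 4305 CPM in control. Gpx6, Sox9, Sox10 and Kl also had lower medians in Fzd1lacZ, while those of Aqp5, Muc2 and Ascl3 were higher. Markers of sustentacular cells (5416 to 9733 against 8001 to 8721 CPM), respiratory epithelium (2456 to 4008 against 2405 to 3128 CPM), gland ducts (269.8 to 363.3 against 253.9 to 325.9 CPM) and vomeronasal neurons (114.8 to 131.2 against 114.6 to 130.3 CPM) overlapped between the genotypes, with none called. In the vomeronasal list the counts of Trpc2 were 0 in all 72 libraries, though its median TPM was 1.38, and in the respiratory list Scgb1a1 was at 0 in 50 libraries. The sustentacular sum holds little of Ugt2a1 and Ugt2a2, at medians of 0.3097 and 9.985 CPM over all libraries, though 480.6 and 136.1 TPM. The vomeronasal sum was mostly Gnao1 (median 82.97 CPM in Fzd1lacZ, 90.08 CPM in control) and Meis2 (37.68 and 31.44 CPM). Vmn2r1, Vmn1r58 and Vmn1r78 had medians of at most 3.695 CPM, so the like sums say little about the amount of vomeronasal tissue. The part of the Bowman gland difference in the fall of the lipocalin genes was not tested.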

How the data were processed

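RNA was extracted with TRIzol and made into stranded total RNA libraries, per the labels' protocols. Reads were made with bcl2fastq 2.18 and aligned to mm10 with STAR 2.6.1c, per the submitters' processing notes. The authors deposited a table of whole read counts and a table of TPM from RSEM, which scales for length and library. RSEM's version, the annotation and strand use in counting are not given in the sources used here. Genes were found by symbol in the TPM table and matched to counts by Ensembl ID.

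In R 4.3.3, edgeR 4.0.16 was run on counts with TMM scaling, filterByExpr (22144 of 54532 genes kept) and a quasi-likelihood model with 1 term for each of 25 groups over 72 libraries, and p-values were Benjamini-Hochberg adjusted over all genes tested. Errors are standard errors of log2 fold changes. Alternatives were DESeq2 1.42.0, its size factors, other filters, limma 3.58.1 on log2(TPM + 1) and log2(TPM + 0.1), only the groups compared, and subsets of libraries. On simulated counts with 20897 genes, the knockout comparison at P14 called 54% of genes changed by 1 and 85% of those changed by 2 on the log2 scale, with 6 unchanged genes called. The simulation gave each gene the spread of the fitted trend and, apart from the added change, the same mean in all groups. Genes that vary more than the trend would be called less often. Promoters (RefSeq, GRCm38.p6) were found for all 7 genes, and positions come from GENCODE on mm10. All 7 genes are named throughout. Of the other lists up to 4 called genes were named, all detected lipocalin genes could be, and each of the 7 had 3 genes of like pattern. The members and lists were chosen with earlier results of these data known. Floors take 3 counts and cover counting error only, with 1.315 M to 8.788 M gene counts per library.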

Additional observations from a re-analysis of the deposited data

How the results depend on the processing

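The direction of no called value reversed under any alternative run. The number of the 7 genes called, Fzd1lacZ against control, moved as follows. Averaged over ages it was 3, and 5 over P7, P10 and P14, 6 with no filter and 6 with limma on log2 TPM at either pseudocount. With no filter it was 2 at P0, 3 at P3, 4 at P7 and 6 at P10, where these were 0, 0, 0 and 1, and with only the groups compared it was 1 at P0 and 3 at P10. The 3 calls at P3 were higher in Fzd1lacZ, with log2 fold changes of 1.161 for Obp2a, 1.236 for Obp1a and 1.445 for Lcn11. The calls at P0, P7 and P10 were lower. At P10 the number of genes called was 2 without the libraries rich in the Gm10800-type family and 6 with limma at either pseudocount. TPM is understated in such libraries, and in Fzd1lacZ P10 replicates 1 and 3 the family took 68.23% and 73.72% of gene counts. The part of this in the limma count at P10 was not tested. At P14 it was 5 genes, and 2 with limma at either pseudocount. It was 4 at P14 with only the groups compared, 6 without the Gm10800-rich libraries and 7 with no filter. For the rise in Fzd1lacZ minus control it was 0, and 2 with DESeq2, 6 with no filter, 2 without those libraries, 1 with limma at either pseudocount and 4 with only the groups compared. With no filter it was 3 for the rise in ectopicFzd1 minus control, 2 for ectopicFzd1 against control without DOX, 2 with DOX and 4 for DOX against no DOX, and DESeq2 gave 1 for ectopicFzd1 with DOX. The share of all genes called was counted only for the edgeR fit with filterByExpr over all 72 libraries. Counts under other settings, here and above, thus have no background beside them. With no filter edgeR gave far smaller p-values, as for Obp1a averaged over ages (adjusted p = 4.25e-08, against 0.0487 with limma on log2(TPM + 1)). The cause of these shifts was not tested.

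Leaving out 1 library at a time gave 2 to 3 genes averaged over ages, 0 to 1 at P10, 3 to 5 at P14, and 0 at P0, P3 and P7. From the first age to P14 it gave 5 to 6 in control, 3 to 4 in Fzd1lacZ, 5 to 7 in ectopicFzd1, 6 to 7 in control with DOX and 6 in ectopicFzd1 with DOX. It gave 55 to 61 calls against the first age, beside 59, and 0 in both comparisons of rises, both ectopicFzd1 comparisons and the DOX comparison. Where a group was left with 1 library, that library was assumed to vary like the other groups. No paired analysis was possible because replicate numbers were given in accession order and pair no libraries. Depth limits Lcn4, which had 9 counts in Fzd1lacZ at P10 and 3 in control at P0.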

Other observations

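On chromosome X the 200 kb around Obp1a and Obp1b hold other genes, which were looked at after the values of the pair were seen. Of 4 such genes, 5430402E10Rik (77919786 to 77925062) had a median of 3.18 TPM (1.24 to 82.26) over the libraries of P0 and P1 and of 230.8 TPM (50.46 to 1939) at P14. Gm14743 (78240462 to 78245921) had medians of 1.14 TPM (0.31 to 3.37) and 105.5 TPM (14.39 to 911.9). The ranges of Gm14743 at the 2 ages do not overlap, and those of 5430402E10Rik do. Here too the share of all genes that separate was not counted. Gm5938, which lies between Obp1a and Obp1b, and 4930480E11Rik stayed at or below 2.78 TPM in every library of these ages. No test was made of these genes.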
